A study of Homo sapiens with 5 samples.

Results

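The AL356804.1 nuclei were the nuclei of a mixture of lung adenocarcinoma cell lines that carried RNA of the long non-coding genes AL356804.1 and AL683807.1 above the level of 5 other gene pairs. For each nucleus, the UMIs (unique molecular identifiers, which count RNA molecules) of each pair were divided by all UMIs of the nucleus and then by the 98th percentile of that share over all barcodes. A nucleus was a member where the AL356804.1 and AL683807.1 value was the highest of the 6, at least 0.2 and at least 2 times the second. In the 80% portion 405 of 6557 nuclei met the rule, a share of 6.18% (exact 95% binomial interval 5.61 to 6.79%). Of 1286 nuclei of the 20% portion, 90 did, a share of 7.0% (5.66 to 8.53%). All intervals given here cover counting error only, and since nuclei of 1 library are not replicates, no difference was tested.

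The study mixed equal parts of the cell lines A549, HCC827, H838, H1975 and H2228. They had been grown separately in RPMI 1640 with fetal calf serum and penicillin-streptomycin, and the sources used here name no other treatment. Nuclei of the mixture went into the 10x Multiome assay, which reads RNA and open chromatin (ATAC) in the same nucleus. The gel bead emulsion was split into an 80% and a 20% portion, each with 1 RNA and 1 ATAC library, and full-length RNA of the 20% portion was also read on a nanopore instrument. The labels give 1 mixture and no cell line for single nuclei, so the nuclei are called here by the gene pair that chose them. The other groups of the 80% portion were 1633 MEG3+MEG8 nuclei, 1197 LINC02055 nuclei, 1328 ALDH1A1+TM4SF4 nuclei, 297 TAGLN+MGP nuclei and 300 EGFR-high nuclei, and 1397 nuclei met the rule for no pair. Each line is one patient's tumour in culture, with its own set of gained and lost chromosome segments. No line was assigned to the AL356804.1 nuclei.

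Long non-coding RNAs are often transcribed in few cell types, and many stay in the nucleus, so nuclear RNA shows them well. In a mixture of tumour lines, RNA and open chromatin of one nucleus also carry marks of its chromosome copy number, since a gained segment gives more RNA and more accessible fragments. Epithelial tumour cells differ in how far they keep cadherin 1 junctions and the factors that maintain them, and the zinc finger factors ZEB1 and ZEB2 bind the sequence CACCTG to repress such genes.

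Values of a group are its summed UMIs or ATAC counts, scaled to a total of 1000000 per group (CPM). The members of the 80% portion held 7227017 UMIs and 5132787 ATAC counts, out of 95455518 and 63920767 in all nuclei, and those of the 20% portion held 1174711 and 1082832, out of 14346346 and 12850543. The median member of the 80% portion had 16266 UMIs (quartiles 12669 and 20956), which was the highest median of the 6 groups, the next being 15484 in MEG3+MEG8 nuclei. It had 5446 detected genes, 11240 ATAC counts and 0.896% of its UMIs on mitochondrial genes. The medians of the 20% portion were 12637.5 UMIs, 4773.5 genes, 11931 ATAC counts and 0.827%. In the 80% portion Scrublet called 26 members doublets (6.42%), the highest share of the 6 groups. TAGLN+MGP nuclei were almost equal, with 19 of 297, and the remaining groups were at 1.66 to 4.33%. Over all nuclei the share was 5.87%, and of the 1397 nuclei of no pair 231 were called (16.5%). Barcodes that occurred in both portions numbered 159, among them 11 members of the 80% portion, of which 5 were also members in the 20% portion and 6 met the rule for no pair there.

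The pair that chose the members was rare RNA. The 98th percentile that scaled it was 0.0283% of UMIs, and a member held between 1 and 46 UMIs of the pair, with a median of 3. A single UMI made 90 members, 70 had 2 and 245 had at least 3. Both genes were seen in 144 members, AL683807.1 alone in 217 and AL356804.1 alone in 44. Just inside the lowest value lay members at 0.202, 0.202 and 0.203, and just outside lay nuclei at 0.199, 0.199 and 0.193. A further 103 nuclei had the pair highest but less than 2 times the second. Outside the members, 623 nuclei had at least 1 UMI of the pair and 32 had at least 3.

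AL356804.1 lies at chr14:70255629-70343388 on the plus strand (hg38, GENCODE v44). In the 80% portion it was at 106 CPM in members (99 to 114), and the other 5 groups were at 4.32 (TAGLN+MGP), 2.09 (EGFR-high), 1.93, 1.45 and 0.731. Members of the 20% portion had 86.0 CPM of it, with no other group above 3.06. A UMI of it was present in 46.4% of members and in at most 6.06% of any other group. With each nucleus thinned to 5000 UMIs these shares were 28% and at most 1.37%. AL683807.1, named LINC02968 in the same annotation, lies at chrX:1732584-1763212 on the plus strand, in the region that the X and Y chromosomes share. It was at 164 CPM in members of the 80% portion (155 to 174), at 13.4 in TAGLN+MGP nuclei and at 4.32 or less in the others, and at 184 CPM in members of the 20% portion. A UMI of it was seen in 89.1% of members and in at most 16.2% of another group (54.0% and 6.14% after thinning). These levels follow from the rule.

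Within 500000 bases lie 15 genes around AL356804.1 and 11 around AL683807.1, each count with the gene itself, and none of the others that reached the mean of 5 CPM was 4-fold above every other group. AL683807.2, next to AL683807.1, fell short of that mean, and was at 8.03 CPM in members (6.09 to 10.4) and at 1.30 (0.476 to 2.82) in the next group. Around AL356804.1, SRSF5 was at 163 CPM, COX16 at 205, SYNJ2BP at 62.3 and MED6 at 92.8, each between 0.93 and 1.13 times the highest other group. SMOC1 was at 4.84 CPM in members and 108 in LINC02055 nuclei. Near AL683807.1, CSF2RA and IL3RA, which code for receptor subunits of GM-CSF and interleukin 3, were at 2.91 and 3.18 CPM against highest values of 21.4 and 19.6.

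The chromatin at the start of AL356804.1 had the most ATAC counts in members. The peak chr14:70255107-70255768 had 45.2 ATAC CPM in members (39.6 to 51.4) and from 1.73 in LINC02055 nuclei to 19.2 in TAGLN+MGP nuclei elsewhere, and 49.9 against 22.8 in the 20% portion. Within the gene, an intron peak at chr14:70257287-70258172 had 10.3 CPM against 2.32. Members did not have the highest value at 2 other intron peaks, with chr14:70310471-70311375 at 0 against 11.9 in ALDH1A1+TM4SF4 nuclei and chr14:70317624-70318544 at 2.34 against 8.72. At the start of AL683807.1 there was little signal, 3.12 CPM against 2.03. A peak at chrX:1702339-1703197, 29386 bases before its start, had 12.7 CPM (9.77 to 16.1) in members and 2.32 in the next group. The 300 bases at the centre of the chrX peak are shown because they are open chromatin near a gene of the pair that defines the nuclei. Sequences are the plus strand of hg38, 5′ to 3′, with matches to any of the 15 motifs listed with the peaks in capitals.
AL683807.1 upstream peak, chrX:1702618-1702917: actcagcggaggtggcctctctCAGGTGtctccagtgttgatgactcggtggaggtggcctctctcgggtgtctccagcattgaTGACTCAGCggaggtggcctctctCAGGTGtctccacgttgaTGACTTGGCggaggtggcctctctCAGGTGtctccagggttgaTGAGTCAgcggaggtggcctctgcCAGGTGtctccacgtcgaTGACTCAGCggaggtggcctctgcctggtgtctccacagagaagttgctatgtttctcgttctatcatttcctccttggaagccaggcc
This window held 10 matches, of which 3 were AP-1, 3 were the NRF2 element and 4 were CACCTG, printed as its reverse complement on this strand and 86, 42 and 43 bases apart.

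Few genes set the members apart from every other group. Of 12533 genes with a mean of at least 5 CPM over the 6 groups, 10 (0.0798%) were at least 4-fold above the highest of the other 5 groups and 6 (0.0479%) at least 4-fold below the lowest. Against the mean of the other 5 groups, 549 genes (4.38%) were at least 2-fold higher and 1244 (9.93%) at least 2-fold lower, so 30.6% of these calls were higher. Against their median, 935 were higher and 559 lower, and 62.6% of calls were higher. With the TAGLN+MGP nuclei left out, 48 genes were 4-fold above every remaining group. Of 12738 genes compared in the 20% portion, 684 (5.37%) were higher, 1459 (11.5%) lower, 15 (0.118%) above every other group and 124 (0.973%) below.

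Besides the pair, 7 of the 10 genes were at 20 CPM or more in members. The remaining gene, PAK6, which codes for a p21-activated kinase and is named after its values were seen, was at 19.8 CPM (16.7 to 23.3) against 4.89 in EGFR-high nuclei. DHRS2, a short-chain dehydrogenase/reductase, was at 1140 CPM in members of the 80% portion (1115 to 1165), 285 in TAGLN+MGP nuclei and 14.2 to 20.8 in the other 4 groups. It was at 879 in members of the 20% portion against 152. A UMI of DHRS2 was present in 92.1% of members, 80.8% of TAGLN+MGP nuclei and 15.1 to 17.3% of the other groups. With each nucleus thinned to 5000 UMIs these shares were 86.9%, 57.7% and 5.31 to 8.56%. VGF, the precursor of secreted neuropeptides, was at 80.7 CPM against 13.3 in EGFR-high nuclei, and at 44.3 against 17.2 in the 20% portion. The long non-coding gene AC068633.1 was at 67.7 CPM against 9.51, and at 52.8 against 10.9 in the 20% portion. The other 4 lay near 30 CPM. SERPINB5, the serpin maspin of epithelial cells, was at 28.6 CPM against 6.70. CAPS, the calcium-binding calcyphosine, was at 27.4 against 5.74, and TMC4, a channel-like membrane protein, 4.03 times the 7.45 of EGFR-high nuclei. OASL, an interferon-induced relative of oligoadenylate synthetase, was at 30.9 against 7.63 and was seen in 14.6% of members. In the 20% portion, 4 of these genes were under 4-fold, with TMC4 at 1.54 times the highest other group, OASL at 2.12, VGF at 2.57 and SERPINB5 at 2.90. DHRS2 in the 80% portion was 4.0 times the highest other group, and 3.92 times with doublets removed.

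**Figure D1:**
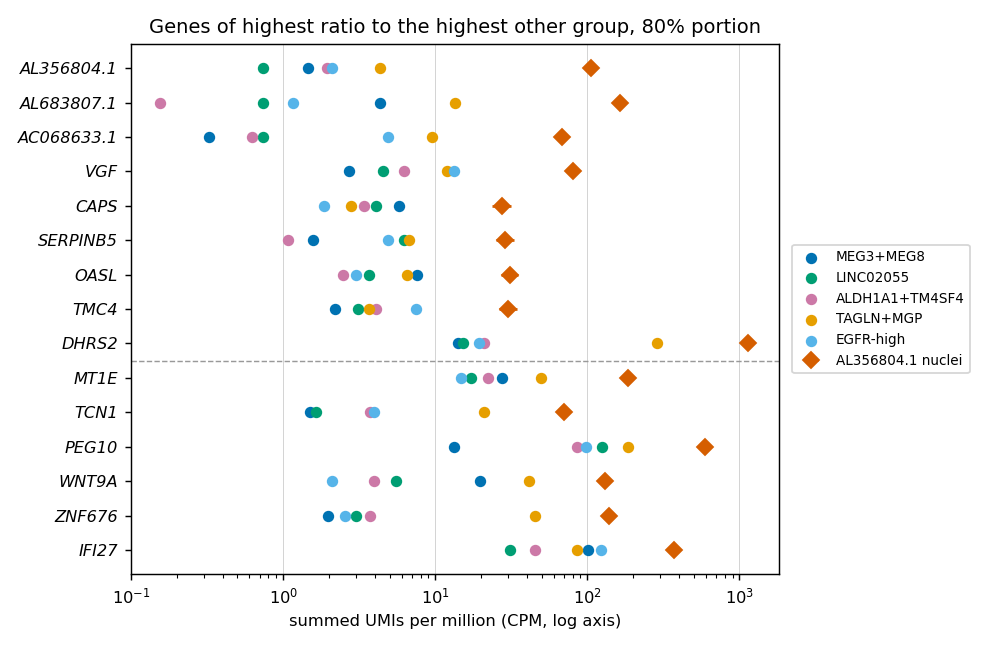
Summed UMIs as CPM (log axis) of 15 genes in AL356804.1 nuclei (diamonds, with exact 95% Poisson intervals) and the other 5 groups (circles) of the 80% portion, with the genes 4-fold above every other group over the dashed line and 6 chosen after their values were seen under it. DHRS2 was at 1140 CPM in AL356804.1 nuclei, 285 in TAGLN+MGP nuclei and at most 20.8 in the others.

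The next genes in order of the ratio to the highest other group were examined after their values were seen. PEG10, an imprinted gene derived from a retrotransposon, was at 597 CPM in members (579 to 615), 184 in TAGLN+MGP nuclei and 13.3 in MEG3+MEG8 nuclei, and at 668 against 161 in the 20% portion. SGCE, its imprinted neighbour, was at 147 CPM against at most 105. MT1E, a metallothionein that binds metal ions, was at 185 CPM against 49.3. WNT9A, a WNT ligand, was at 130 against 41.5. TCN1, which codes for the vitamin B12 carrier haptocorrin, was at 70.6 against 21.0. Others were AKAP6, a kinase anchoring protein, at 117 against 36.5, the presynaptic protein gene PCLO at 110 against 33.8, and SMC1B, a cohesin subunit of meiosis, at 100 against 39.3. HSP90AA1, the inducible cytosolic chaperone HSP90 alpha, was at 7701 CPM against at most 4952, and at 5877 against 3973 in the 20% portion. The nuclear RNA MALAT1 was lower in members than in every other group, at 21453 CPM against 22404 to 38568, but not in the 20% portion, at 22266 against a lowest other value of 21496.

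Genes low in members were chosen in the same way. The phospholipase gene PLCB4 was at 6.78 CPM in members, against 23.3 in TAGLN+MGP nuclei and 169 in ALDH1A1+TM4SF4 nuclei. The adhesion gene CADM1 was at 14.7 against 42.1 to 126. NNMT, nicotinamide N-methyltransferase, was at 61.3 against 114 to 302, and its start peak was at 2.92 ATAC CPM against at least 11.7. The integrin chain ITGB1 was at 582 against 936 to 1732. TGFB1, the ligand TGF-beta 1, was at 18.8 against 31.4 to 77.9, and FHIT, a gene at a common fragile site, at 32.2 against 52.7 to 133. Members of the 20% portion had ITGB1 at 569 CPM, NNMT at 61.3 and CADM1 at 15.3.

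Epithelial genes were mostly high. Of 21 epithelial genes compared, 13 were at least 2-fold above the mean of the other groups and 1 below. Over all genes these shares were 4.38% and 9.93%. The median log2 ratio was 1.23 against -0.04 over all genes, and the 20% portion gave the same 13 and 1 as counts. In members only 4 of the 21 were the highest of the 6 groups, where 14.7% of all genes were. GRHL2, a factor that maintains epithelial genes, was at 103 CPM in members, 88.0 in EGFR-high nuclei and at most 3.70 in the other groups. CDH1, the junction protein E-cadherin, was at 187 in members and 202 in EGFR-high nuclei, and the next group was at 46.9. EPCAM, an epithelial adhesion molecule, was at 644 and 787 in these groups and at most 106 elsewhere. CDH3, or P-cadherin, was at 202 against 127 in EGFR-high nuclei. The splicing factor ESRP1 was at 64.3 and 102, and at most 3.46 in the other 4 groups. Summed over the 24 genes of the list, members were at 8356 CPM, under ALDH1A1+TM4SF4 (11746) and EGFR-high nuclei (10029). ELF3 was the one lower gene, at 53.1 CPM against a mean of 113 and a highest value of 302.

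Mesenchymal genes were lower more often than higher. Of 18 compared, 9 were lower and 1 higher (median log2 ratio -0.97), where 9.93% and 4.38% of all genes were. The 20% portion gave 7 lower and 2 higher of 18, with a median of -0.67. In the 80% portion 3 were the lowest of the 6 groups, namely ZEB1, ZEB2 and TWIST2. Summed over the list, members were at 4636 CPM, above LINC02055 (3431), ALDH1A1+TM4SF4 (3716) and EGFR-high nuclei (2373). ZEB1, a repressor of E-cadherin, was at 51.8 CPM in members against 64.9 to 207, and ZEB2 at 5.95 against 9.77 to 46.5. TWIST2 was at 4.15 against 8.43 to 42.5. Of these, ZEB1 and TWIST2 were not lowest in the 20% portion, at 75.8 and 6.81 CPM against lowest other values of 62.6 and 6.25. VIM, the intermediate filament vimentin, had the most UMIs of the list, at 1857 CPM against a mean of 2422. Collagens and laminins were 1 higher and 9 lower of 21, with COL4A5 at 15.6 CPM against at least 25.5 and LAMB3, a chain of epithelial laminin 332, highest in members at 322. Of 13 integrins, 2 were higher and 1 lower, where 4.38% and 9.93% of all genes were.

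Markers of lung and other tissues were checked, since all lines are labelled as lung adenocarcinoma. Over all genes compared, 4.38% were higher and 9.93% lower, and several of the counts given here rest on 1 or 2 genes. NKX2-1, the factor that defines lung epithelium, was at 56 CPM in members, 77.3 in EGFR-high and 53.9 in MEG3+MEG8 nuclei. Of the 9 alveolar and airway genes compared, 1 (SFTA3, at 36.8 against a mean of 17.7) was higher and 2 lower, while SFTPA1, SFTPC, SCGB1A1 and SCGB3A2 had no UMI in members. Gastrointestinal and hepatic genes were 0 higher and 11 lower of 12, with ALB, AFP, APOB, TTR and CDX2 at 0 UMIs. The ALDH1A1+TM4SF4 nuclei, at a sum of 1169 CPM over the list, raised the mean. Members were at 128, above LINC02055 nuclei at 58.9 and below TAGLN+MGP nuclei at 149, and 1 of the 12 genes was lowest in members. Squamous and basal genes were 2 higher (SERPINB5, and S100A2 at 421 CPM against a mean of 148) and 1 lower of 6, and KRT5 had no UMI. Neuroendocrine genes were 1 higher (SYT1, at 324 against 120) and 1 lower (UCHL1, at 125 against 449) of 3, and INSM1, CHGA, NCAM1 and GRP had none.

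Signs of non-tumour cells were low. The 12 immune genes summed to 14.8 CPM in members against 3.52 to 19.2 in the other groups, CSF1R had the most at 7.89, and CD3E, CD3D, CD2, MS4A1 and LYZ were at 0 UMIs. The 8 endothelial genes summed to 4.57 CPM against 2.63 to 14.7, PECAM1 had the most at 2.77, and VWF and CLDN5 were at 0. The 10 fibroblast genes summed to 63.8 CPM against 27.5 to 409.0, COL1A1 had the most at 40.3, and COL3A1, DCN, LUM and PDGFRA were at 0. Of the genes compared, 0 of 1 immune, 0 of 1 endothelial and 0 of 3 fibroblast genes were higher, and 0, 1 and 3 were lower. Over all genes 4.38% were higher and 9.93% lower.

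Some interferon-induced genes were higher in members. Of 20 compared, 8 were higher and 1 lower (GBP2), where 4.38% and 9.93% of all genes were. In members 6 were highest of the 6 groups (14.7% of all genes were), and the median log2 ratio was 0.73. Summed over the list, members were at 1265 CPM, EGFR-high nuclei at 1101 and the others at 326 to 696. The 20% portion gave 8 higher and 0 lower. IFI27 was at 370 CPM in members against 31.1 to 123. IFIT1, IFIT2 and IFIT3, which bind foreign RNA, were at 44.6, 37.5 and 71.8 CPM against means of 10.7, 7.69 and 16.9. They were seen in 22%, 11.6% and 22% of members, against 85.7% for IFI27. ISG15, a ubiquitin-like modifier, was at 201 against a mean of 76.7. MHC class I genes, also induced by interferon, were 0 higher and 0 lower of 14, with B2M at 1733 CPM against a mean of 1464. MHC class II genes were 0 and 2 of 7, and 0 were lowest in members. MEG3+MEG8 nuclei, at a sum of 1183 CPM over the class II list, raised the mean. Members were at 230 and the remaining groups at 126 to 242.

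Growth and stress pathways are given by their counts, where 4.38% of all genes were higher and 9.93% lower. NRF2 targets, the genes of the antioxidant response, were 1 higher and 14 lower of 24, and 4 were lowest in members. Their sum was 5258 CPM in members, 5100 in EGFR-high and 5751 in TAGLN+MGP nuclei, while ALDH1A1+TM4SF4 (23298) and MEG3+MEG8 nuclei (14062) raised the mean. AKR1B10 was at 195 CPM in members against 4430 in ALDH1A1+TM4SF4 nuclei, which raised the mean to 1050. TXNRD1 and GCLM were lowest of the 6 groups, at 515 and 138. HMOX1, heme oxygenase 1, was the one that was higher, at 108 against 18.4 to 43.9. Of 20 TGF-beta and BMP genes, 0 were higher and 8 lower, with ID2 at 22.7 CPM against at least 33.8 and SMAD6 at 10.1 against at least 12.8. In members 4 of the 20 were lowest. The list summed to 1484 CPM in members, 1469 in EGFR-high and 1823 in TAGLN+MGP nuclei, while LINC02055 (3533) and ALDH1A1+TM4SF4 nuclei (3089) raised the mean. WNT genes were 0 and 5 of 14, YAP and TEAD targets 0 and 3 of 16, NF-kB and cytokine genes 0 and 5 of 16, and NOTCH genes 1 and 1 of 8. The WNT list summed to 672 CPM in members, 1834 in ALDH1A1+TM4SF4 nuclei, which raised the mean, and 703 to 806 elsewhere. The YAP and TEAD list was at 1410 in members and 1668 to 2716 elsewhere. The NF-kB list was at 343 in members, 335 in TAGLN+MGP nuclei and 449 to 537 elsewhere, with 1 of 16 genes lowest in members. Receptor tyrosine kinases were 2 higher and 7 lower of 19, and 0 were lowest in members. The higher ones were MST1R, the receptor RON, at 39.4 against at most 13.9, and ERBB3 at 27.7 against at most 22.1. EGFR, which chose the EGFR-high nuclei, was among the lower genes. The list summed to 1237 CPM in members, 8694 in EGFR-high nuclei and 1072 to 1625 in the other groups. MAPK output genes were 2 and 2 of 20, and p53 targets 1 and 0 of 19. Hypoxia and glycolysis genes were 0 and 2 of 22, cholesterol and fatty acid synthesis genes 0 and 1 of 21, and tumour suppressor loci 0 and 1 of 18, shares lower that do not exceed that of all genes. Mucins and secretory genes were 0 and 6 of 13, neural adhesion and synapse genes 0 and 7 of 10, and the cancer-testis genes of the X chromosome 0 and 10 of 11. In members 1, 0 and 0 genes of these lists were the lowest. The mucin and neural lists summed to 614 and 333 CPM in members and 616 and 338 in EGFR-high nuclei, with the means raised by ALDH1A1+TM4SF4 nuclei (2367 and 1190). The sum of the cancer-testis list was 1230 CPM in LINC02055 nuclei, which raised the mean, 85.0 in members and 46.2 to 136 in the other 4 groups.

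Cell cycle RNA was a larger share in members than in the other groups. S-phase genes took 0.410% of member UMIs (0.405 to 0.415) and G2/M genes 0.704% (0.698 to 0.711), each the highest of the 6 groups, with 0.659% of EGFR-high UMIs on G2/M genes as the next. The shares of the 20% portion were 0.427% and 0.659%, again the highest. Of 46 S-phase genes 2 were at least 2-fold higher and of 50 G2/M genes also 2, near the 4.38% of all genes, and none of either list was lower. In members 22 and 24 of them were the highest of the 6 groups, where 14.7% of all genes were. UBE2C, which feeds the anaphase-promoting complex, was at 313 CPM against 26.5 to 235, and RRM2, a subunit of ribonucleotide reductase, at 219 against 50.9 to 131. Members also had the highest median UMI count, and its part in these shares was not tested.

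Chromosome 19 zinc finger genes formed a block of high genes in members. Most code for C2H2 factors, many with a KRAB domain, which binds the corepressor TRIM28 and silences retroelements. They lie in clusters of close relatives, so their reads can fit several of them, and the sources used here do not say how such reads were assigned. The genes were grouped by position after their values were seen. Between 19 and 25 Mb, 30 of 30 compared zinc finger genes were at least 2-fold above the mean of the other groups and 27 were highest in members, with a median log2 ratio of 1.64. In the 20% portion 29 of 30 were higher, with a median of 1.72. Between 52 and 59 Mb, 56 of 77 were higher and 68 highest (median 1.32), and 49 were higher in the 20% portion. Elsewhere on chromosome 19 the count was 7 of 94, and on other chromosomes 12 of 192. Other genes of the same intervals were higher in 9 of 26 and 25 of 62 cases, while genes between 25 and 50 Mb were higher in 8 and lower in 55 of 295 cases. Over all genes 4.38% were higher and 9.93% lower. The high RNA thus lay in 2 separate stretches of the chromosome, and within them a larger part of the zinc finger genes than of their neighbours passed 2-fold.

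ZNF676 was at 138 CPM in members (129 to 147), 45.0 in TAGLN+MGP nuclei and at most 3.72 in the other 4 groups, and at 146 in the 20% portion. ZNF730 was at 79.3 against 27.9 in EGFR-high and 24.4 in TAGLN+MGP nuclei, with at most 0.871 in the others. ZNF257 was at 52.9 against 13.5, ZNF90 at 86.3 against 54.7, and ZNF714 at 158 against 84.9. ZNF91, at 120 against 108 in TAGLN+MGP nuclei, differed little from that group, and LINC02055 nuclei had 2.38. On the long arm, ZNF432 was at 100 against 45.8 and ZNF83 at 235 against 110. The 37 zinc finger genes of the first interval summed to 2285 CPM in members, 1569 in TAGLN+MGP nuclei, 869 in MEG3+MEG8, 629 in EGFR-high, 230 in ALDH1A1+TM4SF4 and 211 in LINC02055 nuclei. In this sum, too, TAGLN+MGP nuclei were next to members. TRIM28, itself at the end of the long arm, was at 413 CPM in members (398 to 428) against at most 243.

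ATAC counts of the same stretches were higher in members than in the mean of the other groups. All 30 zinc finger genes of the first interval had a peak within 1000 bases of a start. With counts summed over such peaks of a gene, 25 were at least 2-fold above the mean of the other groups and 20 were highest in members. The fold against the mean ran from 1.41 to 12.8, with a median of 2.41. Of all compared peaks, taken singly and not summed per gene, 12.8% were highest in members. The highest ratios to another group were at the start of ZNF730, with 157 ATAC CPM against 35.7 in EGFR-high nuclei, ZNF257, with 28.4 against 10.1, and ZNF676, with 22.4 against 7.76. At the other starts the highest other group was TAGLN+MGP, and members were at 0.719 (ZNF101) to 1.64 (ZNF93) times its value. Starts where TAGLN+MGP nuclei were above members included ZNF101, at 34.7 against 48.3, and ZNF91, at 48.1 against 58.0. Of 126 peaks compared between 19 and 25 Mb, 78 (61.9%) were at least 2-fold above the mean, as were 166 of 328 (50.6%) between 52 and 59 Mb, against 8.54% of all peaks.

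**Figure D2:**
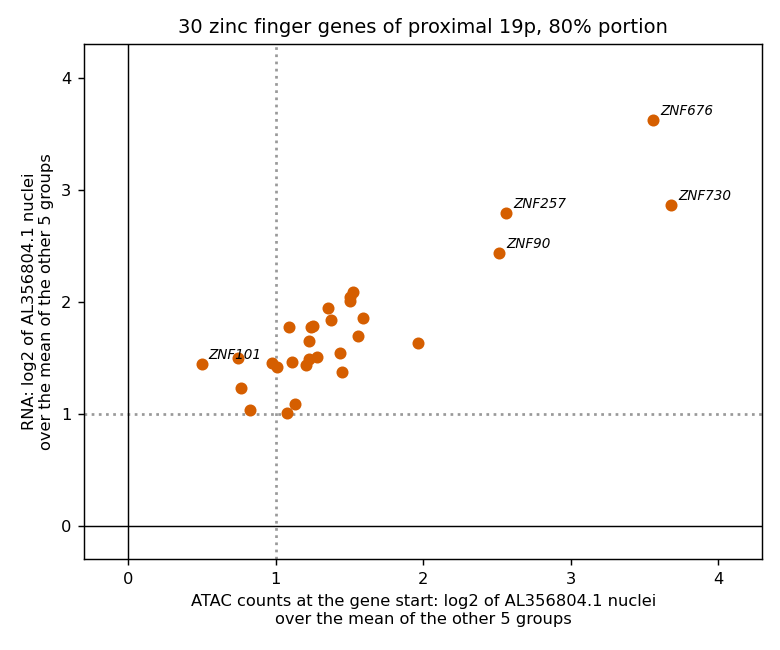
RNA against ATAC counts within 1000 bases of the gene start, both as log2 of AL356804.1 nuclei over the mean of the other 5 groups, for 30 zinc finger genes between 19 and 25 Mb of chromosome 19 in the 80% portion (1 point per gene, dotted lines at 2-fold). Every point lies above the RNA line, and 25 lie right of the ATAC line.

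Of 23 chromosomes, 4 were past the limit against the mean of the other groups in RNA and ATAC alike. The value is the log2 of a chromosome's share of counts over the mean share of the other 5 groups, and 0.2 either way was taken as the limit. Chromosome 7 was at 0.32 in RNA and 0.43 in ATAC, chromosome 14 at 0.36 and 0.30 and chromosome 22 at 0.35 and 0.21, while chromosome 6 was at -0.20 and -0.25. In the 20% portion these were 0.33 and 0.43, 0.34 and 0.30, 0.32 and 0.20, and -0.16 and -0.19, the last within the limit. Chromosome 7 held 7.46% of member ATAC counts, against 4.31 to 7.19% in the other groups, and 6.44% of RNA against 4.06 to 6.43%, so in RNA the next group was nearly equal. Chromosome 14 held 4.72% of RNA against 3.28 to 4.38% and 4.64% of ATAC counts against 3.25 to 4.57%. Chromosome 22 lay inside the range of the other groups, at 1.66% of RNA against 0.955 to 1.75% and 2.15% of ATAC counts against 1.30 to 2.56%. Chromosome 6 was at 4.11% of RNA against 4.19 to 5.24%, and at 3.83% of ATAC counts against 3.83 to 5.18%, so in ATAC another group was as low. Only chromosomes 7 and 14 were thus outside the range in both. Of 32 bins of 5 Mb on chromosome 7, 30 were above 0 in ATAC and 25 in RNA. The bins at 50 to 55 and 55 to 60 Mb were below 0 in both, at -0.30 and -1.25 in ATAC and -0.99 and -0.71 in RNA. On chromosome 14, 16 of 18 bins were above 0 in each.

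Over 583 such bins, 18 were past 0.5 in both measures, 21 past -0.5 in both, and 0 past these limits in opposite directions. The bin of 20 to 25 Mb on chromosome 19 stood highest, at 1.74 in RNA and 1.87 in ATAC, and those of 50 to 55 and 55 to 60 Mb were at 0.77 and 0.77, and 0.84 and 0.92. On chromosome 7, the bin of 60 to 65 Mb was at 1.17 and 1.48 and that of 80 to 85 Mb at 1.08 and 0.96. The bin of 55 to 60 Mb, which holds EGFR, was at -0.71 and -1.25, and the mean there includes the EGFR-high nuclei, which EGFR chose. On chromosome 12, the bin of 25 to 30 Mb was at -1.16 and -1.10. Whether more DNA copies or more open chromatin per copy gave these values cannot be told apart from counts.

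**Figure D3:**
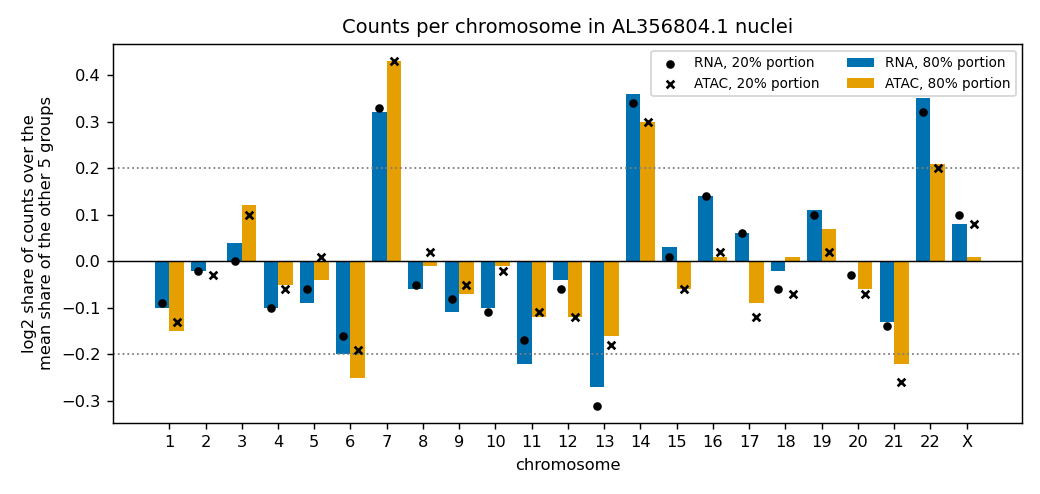
Log2 of each chromosome's share of counts in AL356804.1 nuclei over the mean share of the other 5 groups, with bars for the 80% portion, black marks for the 20% portion and dotted lines at 0.2 and -0.2. Chromosomes 7, 14 and 22 lie above the upper line in RNA and ATAC of the 80% portion, with chromosome 7 at 0.32 and 0.43.

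Few peaks stood 4-fold apart from every other group in members. Of 45214 peaks with a mean of at least 5 ATAC CPM over the groups, 48 (0.106%) were at least 4-fold above every other group, 105 (0.232%) at least 4-fold below, and 362 (0.801%) at least 2-fold above every other group. With the TAGLN+MGP nuclei left out, 264 were 4-fold above and 240 below. Of the 48, 17 (35.4%) were on chromosome 19, against 6.29% of all peaks, with 9 between 19 and 25 Mb and 8 between 52 and 59 Mb. Gene starts within 1000 bases were fewer, at 29.2% against 45.5%.

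The peak with the highest ratio, chr10:131085790-131086697, is intergenic. It had 32.3 CPM in members (27.6 to 37.7) and 0.675 in TAGLN+MGP nuclei (0.0817 to 2.44), the next group, and 12.9 in members of the 20% portion. An intergenic peak between zinc finger genes, chr19:22257091-22258119, had between 53.5 and 67.1 CPM by its interval, against 4.72, and 52.6 in the 20% portion. A pair of peaks in introns of ZNF730, chr19:23098848-23099751 and chr19:23101010-23101926, had 42.5 against 3.37 and 58.4 against 5.80. The intergenic peak chr14:101315472-101316435 had 35.1 CPM against 3.92, and chr7:48537294-48538308, in an intron of the ABC transporter gene ABCA13, had 40.1 against 6.96. In the 20% portion these were at 36.9 against 12.9 and at 40.6 against 5.67. The central 300 bases of 4 of these peaks are shown because the matches in them recur across the set.
chr10 peak, chr10:131086094-131086393: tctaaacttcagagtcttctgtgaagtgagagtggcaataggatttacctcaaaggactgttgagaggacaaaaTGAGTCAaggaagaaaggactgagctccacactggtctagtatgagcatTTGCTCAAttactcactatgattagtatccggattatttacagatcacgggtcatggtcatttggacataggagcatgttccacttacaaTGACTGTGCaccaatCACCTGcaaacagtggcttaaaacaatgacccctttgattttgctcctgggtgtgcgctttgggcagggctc
chr19 peak, chr19:22257455-22257754: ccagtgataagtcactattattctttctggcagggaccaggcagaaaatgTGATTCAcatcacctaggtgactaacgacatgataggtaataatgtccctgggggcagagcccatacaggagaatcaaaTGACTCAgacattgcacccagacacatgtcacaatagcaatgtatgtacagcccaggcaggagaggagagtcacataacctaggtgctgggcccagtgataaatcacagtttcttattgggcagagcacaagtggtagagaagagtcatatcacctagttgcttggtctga
ABCA13 intron peak, chr7:48537651-48537950: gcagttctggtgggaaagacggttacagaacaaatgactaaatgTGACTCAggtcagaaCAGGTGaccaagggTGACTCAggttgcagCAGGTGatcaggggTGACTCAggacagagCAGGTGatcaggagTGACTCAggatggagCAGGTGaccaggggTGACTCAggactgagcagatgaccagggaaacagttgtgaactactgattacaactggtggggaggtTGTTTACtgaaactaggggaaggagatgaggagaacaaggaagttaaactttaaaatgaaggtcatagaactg
chr14 peak, chr14:101315804-101316103: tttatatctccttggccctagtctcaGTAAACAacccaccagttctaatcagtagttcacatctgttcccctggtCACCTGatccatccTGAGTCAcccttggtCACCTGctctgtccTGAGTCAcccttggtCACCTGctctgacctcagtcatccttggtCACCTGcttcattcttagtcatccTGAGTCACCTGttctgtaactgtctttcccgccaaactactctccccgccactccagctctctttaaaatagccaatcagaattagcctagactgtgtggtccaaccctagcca
In the ABCA13 window, counted from 1 at its first base, AP-1 matches began at 45, 74, 103, 132 and 161, so 29 bases apart, and CACCTG matches, on the minus strand, at 60, 89, 118 and 147. The chr14 window held 5 CACCTG matches 29 bases apart, at 76, 105, 134, 163 and 192, and 3 AP-1 matches. Read on its minus strand, it resembles the ABCA13 window in sequence, from the AP-1 and CACCTG matches through to the forkhead match.

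The 15 motifs, searched on both strands of the central 300 bases, were TGANTCA for AP-1, TGTTTAC for forkhead factors, AGATAA for the GATA family, GGAATG for TEAD, TGTGGTT for RUNX and TGACNNNGC for the NRF2 element. The others were CACCTG for the ZEB and SNAI E-box, TTGCNNAA for C/EBP, CACTTGA for the lung factor NKX2-1, ACAATGG for SOX, CAAAGTCCA for HNF4, CCGGAAGT for ETS and AACCNGTT for GRHL, with the HNF1 and CTCF core motifs by name. AP-1 and NRF2 matches can share bases, as can AP-1 and CACCTG. A match is a description of letters and not a binding site. The ABCA13 and chr14 windows resemble each other in sequence, so the windows are not all independent. The intervals treat windows as unrelated, and the part of shared sequence in the shares given here was not tested. AP-1 letters were present in 38 of the 48 windows (79.2%, 65.0 to 89.5) and in 60.5% of the 362, against 33.6% of 45202 windows of all peaks and 26.7% of the 105 below. CACCTG was in 58.3% of the 48 and 39.2% of the 362, against 23.3% of all and 12.4% of the 105. Forkhead letters were in 20.8% and 9.39%, against 4.08% of all. GATA letters were in 6.25% of the 48, 9.06% of all and 21.0% of the 105. TEAD letters were in 29.2% of the 48 and 19.9% of all, the NRF2 element in 16.7% and 18.1%, RUNX letters in 8.33% and 7.22%, and C/EBP letters in 6.25% and 12%. NKX2-1 letters were in 4.17% and 4.64%, GRHL letters in 4.17% and 1.74%, and SOX letters in 2.08% and 2.71%. HNF1, HNF4, CTCF core and ETS letters were in 0 of the 48 (0 to 7.40%), against 0.0553%, 0.480%, 3.46% and 2.62% of all. In percentage points the gap between the 48 and all windows was thus widest for AP-1 and CACCTG, while as a ratio it was wider for forkhead letters. Away from starts by over 1000 bases, AP-1 was in 63.0% of the peaks 2-fold above every other group against 46.1% of all, and CACCTG in 39.9% against 25.5%. The median GC content of the 48 windows was 47.8%, that of all windows 55.3%, and its part in these shares was not tested.

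**Figure D4:**
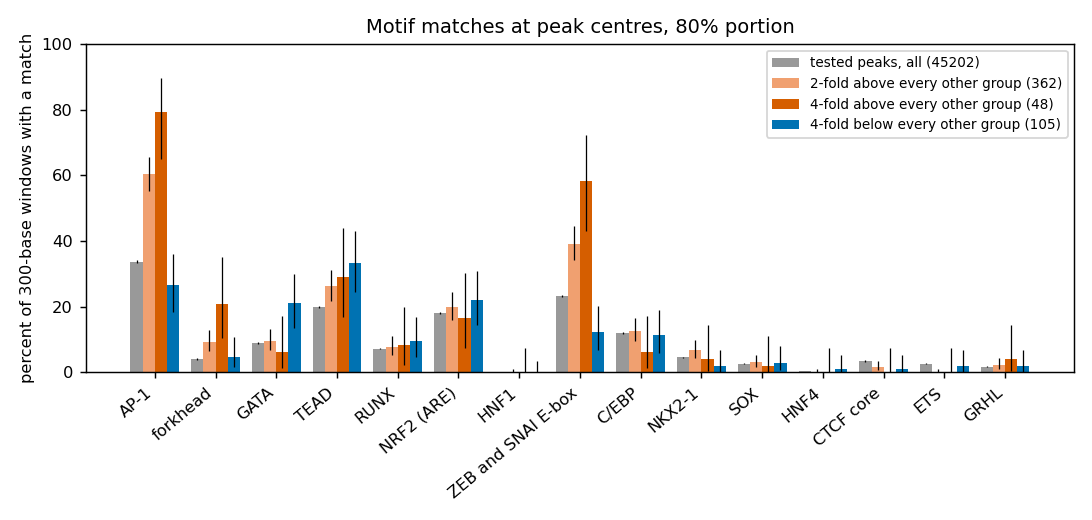
Percent of 300-base windows at peak centres with a match to each of 15 motifs, for all compared peaks, for peaks 2-fold and 4-fold above every other group in AL356804.1 nuclei, and for peaks 4-fold below (bars, with exact 95% binomial intervals that treat windows as unrelated). AP-1 letters were in 79.2% of windows 4-fold above and 33.6% of all windows, and CACCTG in 58.3% and 23.3%.

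The regular spacing was counted after these sequences were seen. At least 3 AP-1 matches were in 12 of the 48 windows (25%), against 1.13% of all and 0 of the 105. A CACCTG 28 to 30 bases from another on its strand was in 9 of 48 (18.8%), against 0.142% of all. AP-1 matches at this distance were in 9 of 48 (18.8%), against 0.383%. Both spacings occurred in 20 windows of 45202 (0.0442%), of which 8 were among the 48 and 10 among the 362. How many of these windows are related in sequence was not tested.

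Of 8 AP-1 subunit genes compared, a set added after the peaks were seen, 0 were at least 2-fold higher and 3 lower, where 4.38% and 9.93% of all genes were. FOSL1 was at 188 CPM against a mean of 132 and a highest value of 274, FOSL2 at an interval of 44.9 to 55.4 against at most 40.9, JUNB at 164 against a mean of 139 and FOS at 28.1 against a mean of 68.5.

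The ATAC counts, which the rule did not use, placed members together. Over the 20 nearest neighbours of each member in ATAC components, 66.5% were members, who were 6.18% of nuclei, 20.2% met the rule for no pair, 5.81% were TAGLN+MGP and 5.10% MEG3+MEG8 nuclei. At least 50% of neighbours were members for 334 of the 405 (82.5%, 78.4 to 86.0), while the same share for the other groups and their own kind was 72.7 to 98.8%. With peaks within 100000 bases of the 12 genes of the rule left out, the 66.5% became 66.6%. The 334 nuclei had DHRS2 at 1288 CPM, PEG10 at 672 and ZNF676 at 149, with a median of 4 UMIs of the pair. The other 71 had 342, 188 and 76.8, a median of 1 UMI of the pair, and 11.3% doublets. The smaller set thus held fewer UMIs of the pair and less RNA of the genes named above.

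The rule also missed nuclei. Of the nuclei that met it for no pair, 101 had at least 50% members among their neighbours, with DHRS2 at 705 CPM, PEG10 at 645 and ZNF676 at 151. Of them 39 had no UMI of the pair, 67 had a value under 0.2, 24 were lost because of the second pair, and 25 (24.8%) were called doublets. Among TAGLN+MGP nuclei, 11 lay among members, with DHRS2 at 970 CPM and TAGLN at 69.6. The remaining 286 had DHRS2 at 256 and TAGLN at 338, where all nuclei of that group had 285 and 327. TAGLN+MGP nuclei with a smaller share of members among their neighbours were not set aside.

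Long reads of the 20% portion were present for 88 of its 90 members, with a median of 34936 per barcode, the highest of the 6 groups, whose other medians were 19425.5 to 31368. The median number of long reads per UMI was 2.66 in members.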

How the data were processed

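A mixture of 5 lines was profiled in 4 short-read libraries (RNA and ATAC of the 80% and 20% portions) and 1 long-read library. The authors deposited raw counts per gene and peak for called barcodes, for which the submitters name Cell Ranger ARC 2.0.0 and hg38, and long-read counts per barcode. The gene annotation, and whether ATAC counts are fragments or ends and long-read counts reads or molecules, are not given in the sources used here. Peaks were called separately for each matrix, so the 20% portion was matched by overlap.

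The members and gene lists were chosen with earlier results of these data known. Main values include every barcode. Counts were summed per group and scaled to CPM over all genes or peaks, with no pseudocount. Features with a mean of 5 CPM over the 6 groups were compared, with calls at 2-fold (mean of the other 5) and 4-fold (every other group). No p-value was computed, because each portion has 1 library and nuclei are not replicates. Intervals are exact 95% Poisson or binomial. Symbols on 2 rows (10) were kept apart by gene ID. Peaks with a count in 10 nuclei or more were given TF-IDF weights (scale 10000) and reduced by singular value decomposition, components 2 to 30 (scikit-learn 1.9.0, scipy 1.17.1, seed 0). Scrublet (scanpy 1.11.5, rate 0.06) marked doublets, which were kept. Motif windows and gene places came from hg38 and GENCODE v44, whose chromosomes held every peak on them. The calling, dosage and neighbour steps were tested on simulated data and found the simulated differences.

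Named genes were the 12 genes of the rule, those 4-fold above every other group at 20 CPM or more in members, all within 500000 bases of the pair, and from each of 31 lists the extremes and the gene of highest CPM. Named peaks were the 10 of highest ratio at 20 CPM or more and those within 100000 bases of the pair. Other genes and peaks, the gene sets by position and the AP-1 genes were chosen after their values were seen. Alternatives were other scalings, floors, folds, cut-offs of the rule, the removal of doublets or shared barcodes, other references and the 20% portion. Sequence of chromosome 8 is not printed, some items are not reported here, and cell line labels for nuclei were not used here.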

Additional observations from a re-analysis of the deposited data

How the results depend on the processing

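No paired analysis was possible because each portion has 1 RNA and 1 ATAC library and the groups are nuclei of the same libraries. Of 111 alternatives on the main counts and shares, 70 stayed near the main value and 41 did not. Of 107 on single genes, lists and chromosomes, 77 stayed near. The number of members stayed within 1.5 times of 405 in each. A floor of 1 CPM gave 1059 genes higher, 2380 lower, 31 above every other group and 70 below, a floor of 20 CPM gave 262, 521, 2 and 0, limits halved on the log2 scale gave 1778, 2575, 88 and 23, and doubled limits 104, 483, 1 and 3. The median of the other groups as reference gave 935 higher and 559 lower, which turned the balance from 30.6% to 62.6% of calls higher. Scaling by the median ratio left 6 genes above every other group. Without the TAGLN+MGP nuclei 48 genes were above and 19 below. Genes below every other group were 21 without doublets, 124 in the 20% portion, 18 with stricter cut-offs of the rule and 18 with only members whose neighbours were mostly members, against 6. Peaks above and below were 5 and 12 with a floor of 10 CPM, 362 and 447 at 2-fold, 13 and 62 at 8-fold, and 264 and 240 without the TAGLN+MGP nuclei. Peaks below were 249 without doublets. With components scaled to an SD of 1, 58.1% of neighbours were members and 71.6% of members had mostly members around them. Chromosomes past -0.2 were 0 in the 20% portion and 0 without the genes and peaks 4-fold apart. S-phase genes took 0.427% of UMIs in the 20% portion, and G2/M genes 0.698% without doublets and 0.659% in the 20% portion. The zinc finger genes of 19 to 25 Mb called higher numbered 28 to 30, the epithelial genes 11 to 15 and the interferon genes 7 to 10 over the alternatives run. Causes were not tested. With 90 members in the 20% portion, a gene at 5 CPM rests on few UMIs there.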

Other observations

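Some genes were 4-fold above the other 4 groups once the TAGLN+MGP nuclei were set aside, and not with them. These genes were chosen after their values were seen, and the choice itself fixes that TAGLN+MGP nuclei are not far below members in them. SLC35F4, which codes for a member of a solute carrier family, was at 43.0 CPM in members, 27.0 in TAGLN+MGP nuclei and at most 0.508 elsewhere. The zinc finger gene ZNF727 was at 38.6, 23.3 and at most 0.619, and ZNF556 at 31.5, 30.7 and at most 0.542. PLK5, of the polo-like kinase family, was higher in TAGLN+MGP nuclei, at 106 against 50.1 in members and at most 0.697 elsewhere. The long non-coding genes AC073365.1 and LINC00624 were at 109 and 189 CPM in members, 97.9 and 84.5 in TAGLN+MGP nuclei and at most 1.78 and 19.4 elsewhere. CALB2, the calcium-binding protein calretinin, was at 29.2 and 70.7, and at most 5.37 elsewhere, and HAS2, a hyaluronan synthase, at 41.0 and 16.9, and at most 5.57. In the 20% portion members had SLC35F4 at 33.2 CPM, AC073365.1 at 111, LINC00624 at 208 and PLK5 at 69.

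TAGLN and MGP themselves, whose UMIs chose the other group, were at 4.98 and 8.30 CPM in members and at 327 and 169 in TAGLN+MGP nuclei. Both groups were chosen by rare RNA in the same library, and whether they come from one line or from several is not given by the labels.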
